A study of Sus scrofa with 44 samples.

Results

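MEF2A, MEF2C, MEF2D, SIX4 and EYA1 encode transcription factors and a coactivator of the muscle program, and were followed here in fetal pig muscle. The 5 genes were taken by symbol from the 22427 genes of each expression file. No cut on a measured value was applied, but earlier results of these data were known when the genes were chosen. The study sequenced RNA from the longissimus dorsi, a back muscle, of pig fetuses aged 33, 40, 50, 60, 70 or 95 days after conception (stages E33, E40, E50, E60, E70 and E95), and from PK15, a pig kidney cell line. Each stage has 3 input samples and 3 samples enriched with an antibody to N6-methyladenosine (m6A), all depleted of rRNA. For PK15, polyA RNA and rRNA-depleted RNA each have 2 inputs and 2 enriched samples. No group carries a genotype or a treatment, and breed, sex and litter are not stated. Expression was given for the 18 muscle inputs, and 1 list of m6A peaks was given for each of the 6 stages and the 2 PK15 preparations. Nothing states that the 3 samples of a stage came from separate fetuses, so p-values measure the spread between these samples only.

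MEF2 proteins are MADS-box factors that bind A/T-rich elements in muscle genes and act together with the myogenic regulators MYOD1 and MYOG. They are held inactive by class IIa histone deacetylases and freed by calcium and stress kinases. SIX4 and its relatives are homeodomain factors that need EYA cofactors to activate early muscle genes, and this pair acts upstream of the myogenic regulators in the embryo. m6A is a methyl mark on mRNA, placed mostly in the sequence DRACH (A, G or T, then A or G, then AC, then A, C or T) and most often near stop codons.

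Values are TPM, a share of all transcripts that is corrected for transcript length and carries no sequencing depth. Between 37.4% and 72.4% of a library's TPM belonged to a single gene that has no symbol. Deposited values of all other genes depend in part on its share. Levels are therefore given as scaled TPM, the deposited TPM divided by a median-ratio size factor of the library (0.303 to 1.99). Changes are on the scale of log2(scaled TPM + 1), which understates the change of low genes, and come from limma fitted to the 13334 genes whose mean reached 1 TPM. All 5 members passed that filter. A gene is called changed where its p, adjusted by Benjamini-Hochberg across these 13334 genes, is under 0.05. Between E33 and E95 the median change of all genes was -1.02 (log2) on deposited values and -0.0046 on scaled values. With TPM rescaled after leaving out the 2 most abundant genes it was -0.60, and the cause of this remaining shift was not tested. The scaling decides several calls below. E40 replicate 2 and E50 replicate 3 stood apart, with a second gene holding 17.3% and 14.4% of the TPM.

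The sequences under the m6A peaks are shown first, to set the peaks of the 5 genes side by side. Capitals mark DRACH on the transcript strand, and coordinates are those of Sscrofa11.1, read from the RefSeq genome of that build. The first pair is a coding segment shared by MEF2A and MEF2C, and the next lines are the start of MEF2C and MEF2A. The last lines come from the main peaks of MEF2D, SIX4 and EYA1. The 30-base pieces were placed around a match inside the peak, so their matches are not a finding.
MEF2A last exon, chr1:138507441-138507500, plus strand: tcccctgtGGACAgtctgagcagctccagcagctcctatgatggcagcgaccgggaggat
MEF2C last exon, chr2:96126913-96126972, minus strand: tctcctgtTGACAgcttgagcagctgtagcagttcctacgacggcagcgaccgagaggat
MEF2C start codon and the bases before it, chr2:96217037-96217066, minus strand: gaagaaaaacggGGACTatggggagaaaaa
MEF2C first coding exon, chr2:96216996-96217049, minus strand: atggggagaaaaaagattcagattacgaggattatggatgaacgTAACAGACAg
MEF2A first coding exon, chr1:138417886-138417939, plus strand: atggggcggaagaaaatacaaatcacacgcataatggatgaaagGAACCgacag
MEF2D coding bases in all stage lists, chr4:93611829-93611889, plus strand: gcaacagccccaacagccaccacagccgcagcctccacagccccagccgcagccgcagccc
SIX4 bases before the stop codon, chr1:189673988-189674018, minus strand: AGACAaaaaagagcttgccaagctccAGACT
SIX4 exon 2, E70 peak, chr1:189678394-189678454, minus strand: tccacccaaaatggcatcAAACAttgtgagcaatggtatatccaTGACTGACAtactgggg
EYA1 3′ UTR at E70, chr4:64326392-64326421, plus strand: actacatggttcAAACCtgtgaagaaagga
EYA1 3′ UTR at E95, chr4:64326665-64326694, plus strand: tgccgttcactcGAACAgacgacttTGACA
In MEF2A and MEF2C the shared segment begins 168 bases before the end of the coding region, at the first base of a codon, and 50 of its 60 bases are identical. It was found by searching all ungapped 60-base windows of the coding bases under the peaks for the best match, so the identity is a description. The whole segment lay under a peak in 4 stage lists for MEF2A and in all 6 for MEF2C. No 60-base window of the MEF2D coding region matched the MEF2A segment at more than 31 bases. The 3 first coding exons are each 54 bases long, and that of MEF2C matches MEF2A at 40 bases and MEF2D at 42. The MEF2C exon was covered in all 6 stage lists, the MEF2A exon at E95, and the MEF2D exon in none.

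MEF2C, the most abundant of the 3 MEF2 genes, rose through the whole series. Its scaled TPM was 28.1, 26.1 and 24.2 in the E33 libraries and 36.2, 25.3 and 37.4 at E40. It was 35.6, 35.97 and 34.6 at E50, and 35.9, 36.98 and 39.4 at E60. It reached 56.2, 46.3 and 52.8 at E70 and 48.7, 53.1 and 60.4 at E95. All E95 libraries lay above all E33 libraries, and the E70 and E95 libraries lay above those of every earlier stage. The mean went from 26.1 ± 1.99 (SD, n = 3) at E33 to 54.0 ± 5.93 at E95, a log2 change of 1.02 ± 0.13 (SE) with adjusted p = 1.92e-05 by limma. The order of the stage means was E95, E70, E60, E50, E40 and E33. Of these neighbours E70 and E60 alone did not overlap, with a log2 difference of 0.45 and adjusted p = 0.114. On deposited TPM the E95 libraries had 31.5, 30.6 and 52.1 against 33.3, 51.9 and 45.2 at E33, and these overlap. That change was -0.21 (adjusted p = 0.749), still above the all-gene median of -1.02. With TPM rescaled after leaving out the 2 most abundant genes it was 0.38 (adjusted p = 0.0881), so the call rests on the scaling.

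MEF2D, a family member expressed in many tissues, rose on the scaled values, with no fall at any step of the means. Its scaled TPM was 11.6, 9.39 and 11.9 at E33, 11.7, 13.6 and 11.9 at E40, and 16.2, 13.4 and 16.2 at E50. It was 16.1, 18.5 and 19.98 at E60, 19.1, 18.8 and 18.3 at E70, and 22.3, 22.8 and 25.5 at E95. The E95 libraries were above all others, and the groups of E33 and E95 did not overlap. The log2 change from E33 to E95 was 1.04 ± 0.11 (SE; adjusted p = 2.39e-06 by limma). Neighbours in the order of means overlapped except E95 and E70, which differed by 0.31 with adjusted p = 0.0776. On deposited TPM the change was -0.14 (adjusted p = 0.792), again above the all-gene median, and rescaling without the 2 most abundant genes gave 0.44 (adjusted p = 0.0119).

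MEF2A, the third of these factors, changed least and its calls were the weakest. Its scaled TPM was 10.2, 10.1 and 8.62 at E33, 14.4, 11.9 and 14.5 at E40, and 11.6, 14.0 and 9.63 at E50. It was 11.5, 9.34 and 10.3 at E60, 14.0, 13.7 and 13.3 at E70, and 12.05, 11.4 and 15.8 at E95. All E40, E70 and E95 libraries lay above the E33 libraries, while E50 and E60 overlapped them. From E33 to E95 it rose by 0.40 ± 0.14 (log2, SE; adjusted p = 0.0282 by limma), and from E33 to E40 by 0.45 ± 0.14 (adjusted p = 0.0310). All neighbours in the order E70, E40, E95, E50, E60 and E33 overlapped. The rise to E95 was not called without E33 replicate 3 (0.33, adjusted p = 0.108) or without E95 replicate 3 (0.26, adjusted p = 0.134), and deposited values gave -0.76 (adjusted p = 0.214). The rise to E40 was not called without E33 replicate 1 (adjusted p = 0.0550), E33 replicate 3 (0.125), E40 replicate 1 (0.106) or E40 replicate 3 (0.107), and deposited values gave -0.20.

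**Figure D1:**
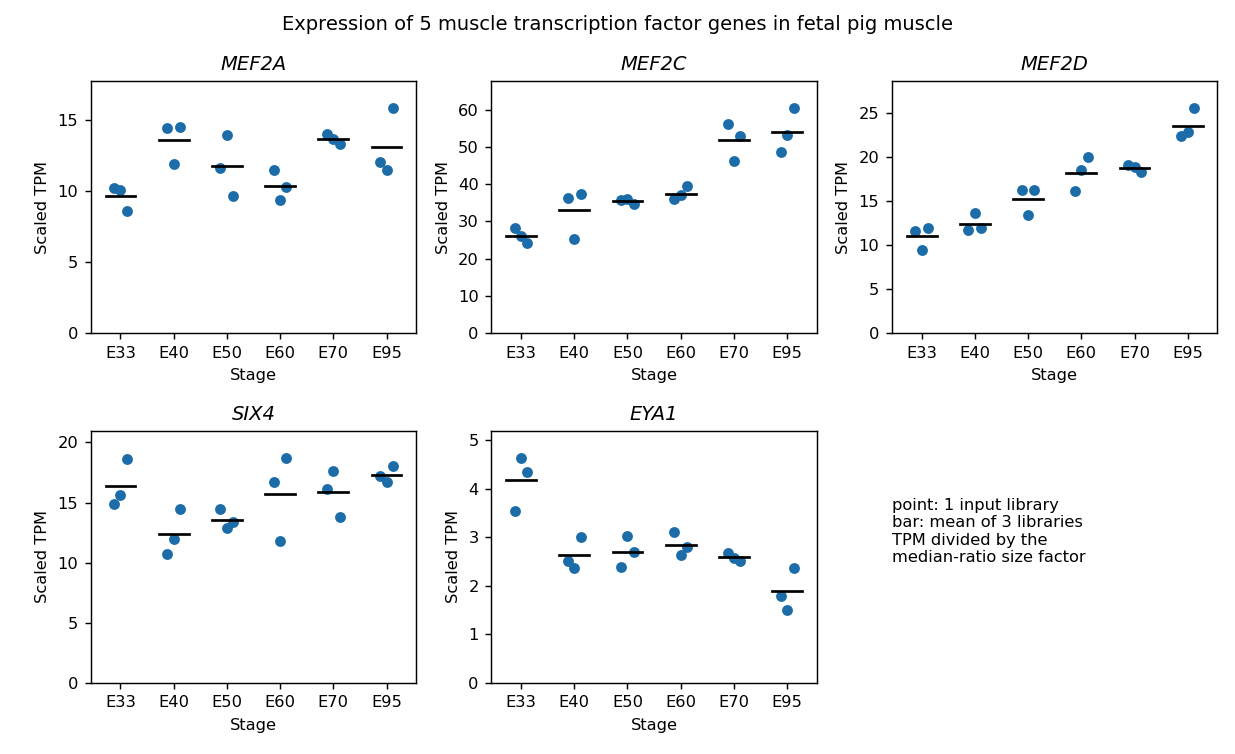
Scaled TPM (y axis) of the 5 genes in each of the 18 muscle input libraries by stage (x axis); points are libraries and bars the means of 3. MEF2C and MEF2D rise to 54.0 and 23.5 at E95, and EYA1 falls to 1.89; on deposited TPM the MEF2 rises turn into changes of -0.76 to -0.14 (log2).

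SIX4, a homeodomain factor of embryonic muscle, showed no called change. Its scaled TPM was 14.9, 15.6 and 18.6 at E33, 10.7, 12 and 14.5 at E40, and 14.5, 12.9 and 13.4 at E50. It was 16.7, 11.8 and 18.7 at E60, 16.1, 17.7 and 13.8 at E70, and 17.2, 16.7 and 18.01 at E95. The E40 and E50 libraries were all below those of E33 and E95, and E33 and E95 overlapped each other. From E33 to E95 the log2 change was 0.08 ± 0.15 (SE; adjusted p = 0.689 by limma), and from E33 to E40 it was -0.38 ± 0.15 (adjusted p = 0.0915). The order of means was E95, E33, E70, E60, E50 and E40, with overlap between all neighbours. The scaling matters here too: the change to E95 was -1.11 on deposited TPM (adjusted p = 0.0668) and -0.56 after leaving out the 2 most abundant genes (adjusted p = 0.0308). The medians of all genes in these settings were -1.02 and -0.60, so SIX4 lay near the median gene in each.

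EYA1, a transcriptional coactivator and phosphatase that binds SIX4, was the gene that fell. Its scaled TPM was 3.54, 4.64 and 4.34 at E33, 2.52, 2.38 and 3.01 at E40, and 2.40, 3.02 and 2.70 at E50. It was 3.11, 2.64 and 2.80 at E60, 2.68, 2.57 and 2.51 at E70, and 1.80, 1.499 and 2.37 at E95. The E33 libraries were above all later ones, and the E95 libraries below all earlier ones, though E95 replicate 3 at 2.37 and E40 replicate 2 at 2.38 were nearly equal. The log2 change from E33 to E95 was -0.85 ± 0.12 (SE; adjusted p = 3.75e-05 by limma), a 1.80-fold decrease on that scale. This fall was also called on deposited TPM, where it was -1.77 (adjusted p = 0.00249) and below the all-gene median. The first step, from E33 to E40, held -0.51 ± 0.12 (adjusted p = 0.00787). That step was not called on deposited TPM (-1.07, adjusted p = 0.121) or when the other stages were left out of the fit (adjusted p = 0.0532). In the order E33, E60, E50, E40, E70 and E95, E33 did not overlap E60 and E70 did not overlap E95, the latter differing by -0.32 with adjusted p = 0.0897.

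Of the 5 genes, 4 were called across the 6 stages by the moderated F test, where 47.5% of all genes tested were called. The adjusted p was 0.0379 for MEF2A, 0.000109 for MEF2C, 1.95e-05 for MEF2D, 0.127 for SIX4 and 0.00108 for EYA1. The MEF2A call was lost in 11 of the 18 fits that left out 1 library, and SIX4 was called (adjusted p = 0.0261) without E60 replicate 2. Between E33 and E95, 4 of 5 were called, where 46.7% of all genes were (22.8% higher and 23.8% lower). Among the 5, 3 were higher and 1 lower. On deposited TPM EYA1 alone was called in both tests, against 20.1% of all genes in the F test and 48.5% between E33 and E95 (2.64% higher and 45.8% lower). Between E33 and E40, 2 of 5 were called, 1 higher and 1 lower, against 21% of all genes (10.1% higher and 10.9% lower). On deposited values none was called, against 4.87% of all genes. No member was called by limma in the later consecutive pairs, E50 against E40 (1.54% of all genes called), E60 against E50 (0.817%), E70 against E60 (1.76%) and E95 against E70 (13.5%). At an unadjusted p under 0.05 the numbers of members in these pairs were 1, 1, 2 and 2. The percentages above are for adjusted p, and the share of all genes at the unadjusted threshold is not given here. These numbers therefore cannot be set against the other genes. MEF2C was called higher at E40 than at E33 without E40 replicate 2 (0.48, adjusted p = 0.00677), and higher at E70 than at E60 without that library and E50 replicate 3 (adjusted p = 0.0372). EYA1 was called lower at E95 than at E70 without E95 replicate 3 (-0.44, adjusted p = 0.0224). With so many of all genes called between the first and the last stage, these counts alone do not set the 5 genes apart.

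**Figure D2:**
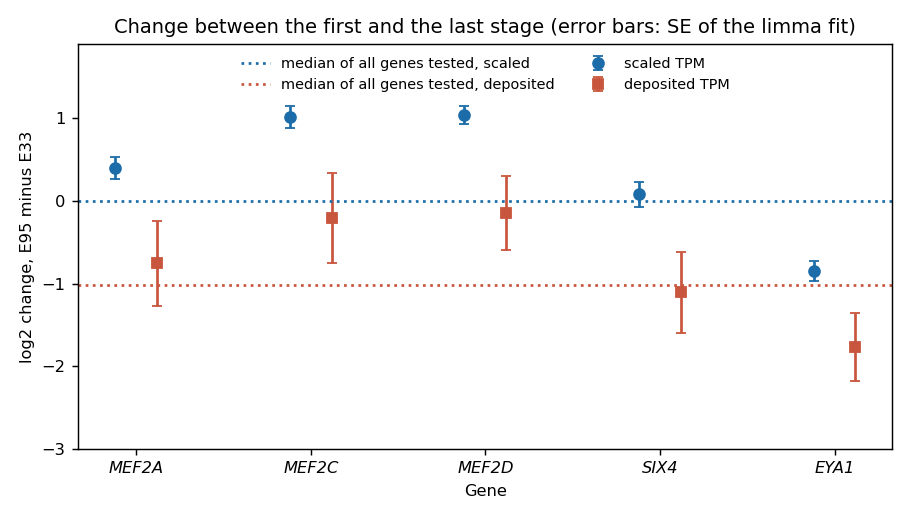
Log2 change from E33 to E95 (y axis, log2 of TPM + 1) of the 5 genes, on scaled (circles) and deposited (squares) TPM, with SE bars; dotted lines are the medians of all genes tested. MEF2A, MEF2C and MEF2D are above 0 on scaled values (0.40, 1.02 and 1.04) and below 0 on deposited values (-0.76, -0.21 and -0.14), and EYA1 is below 0 on both.

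Ratios within a library do not depend on the scaling. MEF2C over MEF2A was 2.76, 2.58 and 2.80 in the E33 libraries and 4.04, 4.64 and 3.82 at E95, with no overlap. The mean went from 2.72 ± 0.118 (SD, n = 3) to 4.16 ± 0.423, a log2 difference of 0.61 (exact two-sided permutation p = 0.1, the smallest that 3 against 3 libraries can give). In the stages between, the means were 2.41, 3.08, 3.64 and 3.79, so the ratio was lowest at E40. A further 2 ratios were chosen after the levels had been seen. MEF2D over MEF2A was 1.13, 0.930 and 1.39 at E33 and 1.85, 1.99 and 1.61 at E95, without overlap (log2 difference 0.67, exact permutation p = 0.1). SIX4 over EYA1 was 4.19, 3.36 and 4.29 at E33 and 9.58, 11.2 and 7.59 at E95, also without overlap (1.25, exact permutation p = 0.1). The Benjamini-Hochberg adjusted value over these 3 ratios was 0.1 for each. Among the summed TPM of the 3 MEF2 genes, MEF2A took 20.6% ± 1.46 at E33 and 14.4% ± 1.22 at E95. MEF2C held 55.9% ± 1.66 and 59.6% ± 1.116, and MEF2D 23.5% ± 3.06 and 26.0% ± 0.904 (SD, n = 3). MEF2C thus supplied more than the other two together at both ends.

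**Figure D3:**
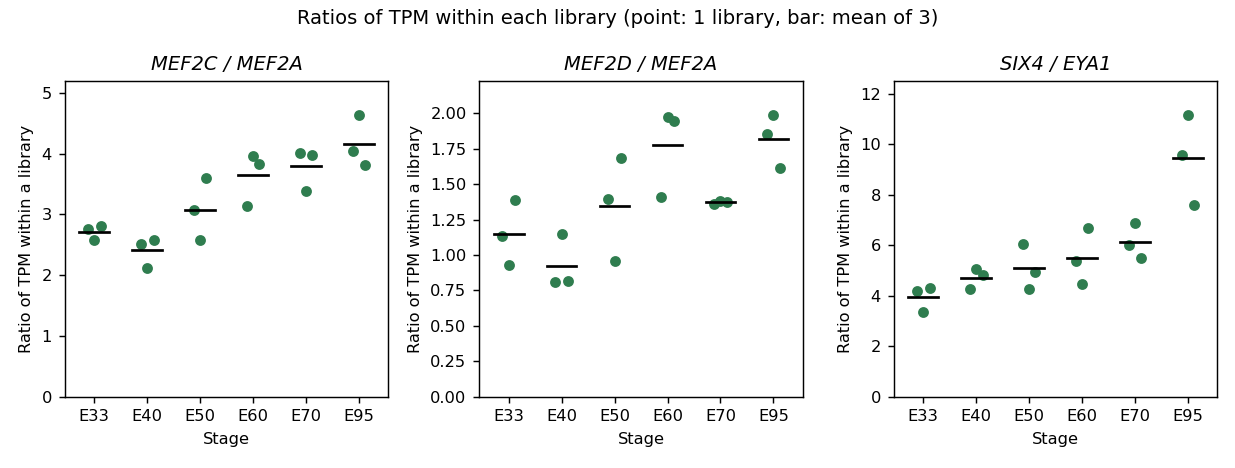
Ratios of TPM within each library (y axis) by stage (x axis) for MEF2C over MEF2A, MEF2D over MEF2A and SIX4 over EYA1; points are libraries and bars means of 3. In each panel all E95 points lie above all E33 points, and the mean of SIX4 over EYA1 goes from 3.95 to 9.44.

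Among the 5 genes, MEF2C and MEF2D were most alike across the 18 libraries (Pearson r = 0.829 of the log2 values), and MEF2D and EYA1 most opposed (r = -0.750). These values share libraries, size factors and stage trend and are descriptions. Over all tested genes with a symbol, MEF2C was most like SESN1 (r = 0.963) and TMEM182 (0.957), and MEF2D most like NFIC (0.976) and PLXND1 (0.968). MEF2A was most like UBE2E3 (0.928) and FRS2 (0.922), and EYA1 most like DISP1 (0.931) and ROBO1 (0.916). For SIX4 the closest were TPST2 and GP9, both at 0.745, well under the other members' values.

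The other sine oculis homeobox (SIX4 and its relatives), EYA and DACH genes moved in both directions. DACH proteins are corepressors that bind the homeodomain and EYA complex. Of 10 listed genes 8 were tested (SIX3 and DACH2 were below 1 TPM) and 6 were called between E33 and E95, 3 higher and 3 lower. Of all genes tested, 22.8% were called higher and 23.8% lower. The median change of the 8 was -0.14 beside -0.0046 for all genes. SIX2, known from kidney progenitors and connective tissue, fell from 63.9 ± 8.03 (SD, n = 3) to 4.73 ± 1.17 scaled TPM (log2 -3.51 ± 0.50 SE, adjusted p = 4.20e-05). EYA2 fell by 1.00 on the log2 scale, from 3.88 ± 0.208 to 1.44 ± 0.288. SIX6 rose from 1.77 ± 0.413 to 7.25 ± 2.96 (1.53) and DACH1 from 0.438 ± 0.0449 to 2.28 ± 0.315 (1.19). On deposited TPM, where 45.8% of all genes were called lower and 2.64% higher, 5 of the 8 were called, all lower. SIX6 at 0.59 and DACH1 at 0.57 were not called there. After leaving out the 2 most abundant genes 7 were called, 2 higher and 5 lower. The all-gene median there was -0.60, and the share of all genes called in that setting is not given here.

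Among regulators and partners of MEF2, more genes rose than fell on scaled values, and this split turned with the scaling. Of 23 listed genes 22 were tested (MYOCD was below 1 TPM) and 12 were called, 10 higher and 2 lower, with a median of 0.21 beside -0.0046 for all genes. Of all genes tested, 46.7% were called between these stages. CAMK2B, a calcium and calmodulin dependent kinase, rose from 0.906 ± 0.0895 to 6.02 ± 0.513 scaled TPM (1.88 ± 0.15, adjusted p = 1.22e-07). SIK1, a kinase of class IIa deacetylases, rose from 3.28 ± 0.284 to 14.1 ± 4.31 (1.78 ± 0.21). MAPK7, also known as ERK5 and a kinase that activates MEF2 proteins, fell from 33.4 ± 4.08 to 12.6 ± 2.77 (-1.35 ± 0.15, adjusted p = 4.97e-06). NFATC1, a calcium-responsive factor, fell by 0.31 on the log2 scale (adjusted p = 0.0327). On deposited TPM, where 2.64% of all genes were called higher and 45.8% lower, 10 of the 22 were called, 1 higher and 9 lower. CAMK2B stayed higher (1.05) and MAPK7 lower (-2.54), while SIK1 at 0.70 was not called. After leaving out the 2 most abundant genes 14 were called, 2 higher and 12 lower. The median of all genes was -0.60 in that setting, and their share of calls is not given here. Without 1 library at a time, 9 to 13 of the 22 were called.

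Known target genes of MEF2 factors and of SIX4 and its relatives rose almost throughout. This list, like those of the paragraphs above, was written with earlier results of these data known. Of 16 listed genes 15 were found by symbol (SRPK3 was not) and 14 were called, all higher, with a median of 2.43. The median of all genes was -0.0046, and 22.8% of them were called higher. CKM, the muscle creatine kinase, rose from 6.53 ± 1.42 to 1066 ± 244 scaled TPM (7.14 ± 0.19, adjusted p = 6.96e-12), and ALDOA, a glycolytic aldolase, from 13.2 ± 4.71 to 404 ± 106 (4.86 ± 0.33). The exception was MYOG, the differentiation factor, at 124.9 ± 3.59 and 119.2 ± 16.7 (-0.08, adjusted p = 0.716). On deposited TPM the all-gene median was -1.02, with 2.64% of all genes called higher and 45.8% lower. Of the targets 9 were called there, 8 higher and MYOG lower, with a median of 1.201. Dropping the 2 top genes before rescaling gave 15 calls, 14 higher and 1 lower, beside an all-gene median of -0.60. Shares of all genes called in that setting are not given here. ACTA1, DES, CKM and MYOG are also markers of skeletal muscle in the next paragraph.

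**Figure D4:**
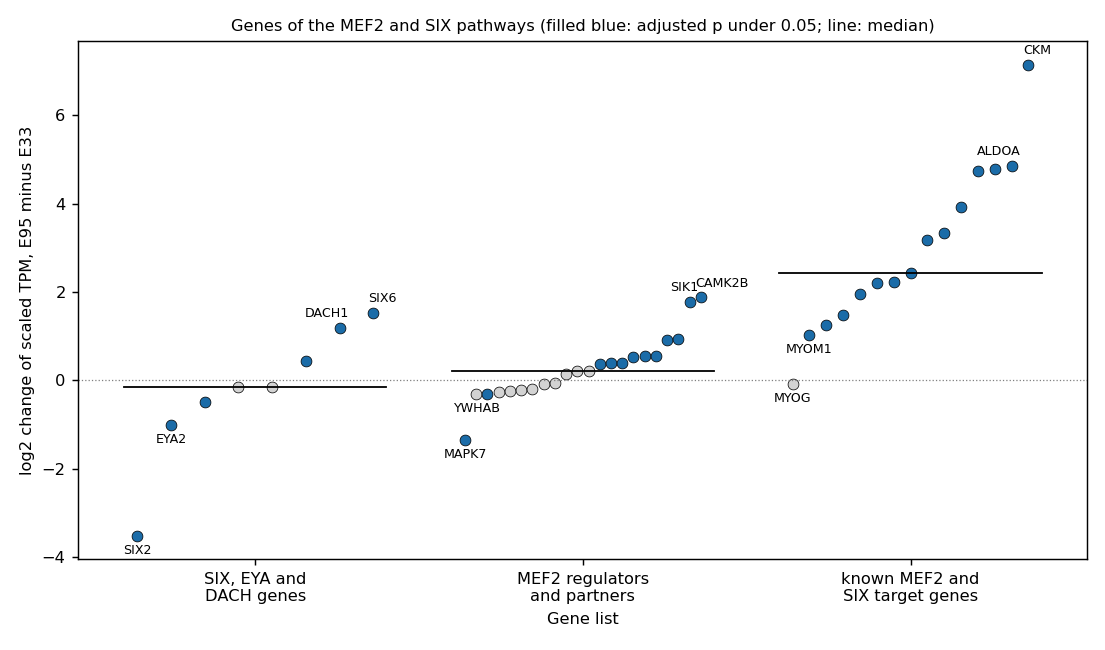
Log2 change of scaled TPM from E33 to E95 (y axis) for the tested genes of 3 lists (x axis); blue points have an adjusted p under 0.05, gray points do not, and lines are list medians (-0.14, 0.21 and 2.43). Targets lie highest, with CKM at 7.14; on deposited TPM the list medians are -1.28, -0.94 and 1.201.

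The makeup of the tissue moved with these values. The 6 skeletal muscle markers, all detected at every stage, summed to 832 to 975 scaled TPM at E33 and 9299 to 14732 at E95. The neural markers (6 of 7 found) summed to 112 to 143 at E33 and 8.64 to 12.03 at E95, and the erythroid markers (3 of 4 found) to 76.7 to 221 and 3.70 to 9.82. Endothelial markers (5 of 5) summed to 16.3 to 21.1 at E33 and 105 to 134 at E95, with SOX18 at 0 in all E33 libraries. Cartilage and fibroblast markers (6 of 6) summed to 1778 to 2450 and 3895 to 5884 at these stages. Immune markers (4 of 4) summed to 4.93 to 7.37 and 10.4 to 14.7, with CD79B at 0 in all libraries of both stages. Their part in the changes of the 5 genes was not tested, and in bulk tissue fewer cells of a type and less RNA per cell cannot be told apart.

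The m6A peaks of the 5 genes differed in number and place. Each list is 1 set of peaks for a stage or preparation, with no replicates, and the fold enrichment and p of a peak are the authors' values. A missing peak therefore means that none was listed. MEF2C and MEF2D had peaks in all 6 stage lists, as had 18.3% of the genes tested. MEF2A and SIX4 had them at E33, E60, E70 and E95 but not at E40 and E50, a pattern found in 1.33% of the genes. Those 2 stages include the inputs that stood apart, E40 replicate 2 and E50 replicate 3, with 10545 and 8691 genes at 1 TPM. There MEF2A had 5.50 and 2.91 deposited TPM, and SIX4 5.55 and 4.04. Their part in the missing peaks was not tested. EYA1 had peaks at E70 and E95 only, as 1.06% of genes did. The shares were computed for patterns already seen in these genes. The E33 list held peaks for 4 members (34.8% of all genes tested had one), E40 for 2 (22.5%), E50 for 2 (30.4%), E60 for 4 (31.4%), E70 for 5 (34.4%) and E95 for 5 (33.7%). The E40 list is also the shortest, with 4928 peaks against 7058 to 8685 at the other stages. In all, the stage lists held 41 peaks of the members, of which 34 overlapped a peak in another stage list. With overlapping peaks joined across all 8 lists, they fall into 15 sites, 3 of them present at all 6 stages. The SIX4 exon 2 peaks of E60 and E70 count as 1 site only through a PK15 peak. In PK15, 3 members had a peak in the polyA list (57.1% of all genes tested) and 1 in the rRNA-depleted list (37.1%).

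MEF2C carried 15 of these peaks and 2 of the 3 constant sites. The site at its start codon joins 3 exons and had the same boundaries in all 6 lists. It holds 177 bases of the 5′ UTR, 94 coding bases and 30 bases that lie in no RefSeq exon of the gene. Its fold enrichment was 3.40, 5.10, 3.73, 2.90, 3.87 and 4.61 from E33 to E95, with a p listed as 0 each time. A p listed as 0 occurs in 0.691% to 2.25% of the peaks of a stage list, so this site was among the best supported by the authors' values although its fold was moderate (23.2 to 65.5 percentile of the list). The bases just before the start codon hold GGACT, printed above. Within the whole 301-base peak that is an ordinary match, since 35.0% of E95 peaks within 20% of that length hold GGACT. The site at the MEF2C stop codon had folds of 3.10, 2.72, 3.55, 3.28, 3.28 and 4.05. It ended at the same base, 31 bases into the 3′ UTR, in all 6 lists and reached furthest upstream at E33, E60, E70 and E95.

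Another MEF2C site appeared late. At E70 a peak of 61 bases (fold 1.80) lay in a 138-base exon at chr2:96164840-96164977, and at E95 a peak of 151 bases (fold 2.71) covered that whole exon and 13 bases of the exons on both sides. That exon is in 15 of 49 RefSeq coding transcripts of MEF2C and the neighbouring 144-base exon in 34, and no transcript has both. The E95 peak nevertheless runs into that 144-base exon, so it joins 2 exons that no RefSeq transcript joins. The folds were low within their lists, at the 1.87 and 15.7 percentile. At E95 a further peak of 61 bases with a fold of 2.35 lay far upstream, at chr2:96277260-96277320, in an exon outside the transcript used here. Neither PK15 list had a peak in MEF2C. Peaks in all 6 stage lists and in no PK15 list were found for 2.16% of the genes tested. PK15 expression was not analysed here, so neither the level of MEF2C in those cells nor their kidney markers could be set beside the lists.

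MEF2D had its constant site inside the coding region, upstream of the stop codon in all 6 lists. Its folds were 2.89, 2.03, 2.86, 3.04, 3.07 and 3.75, and it was also in the rRNA-depleted PK15 list, with identical boundaries to E33 and E60 and a fold of 3.54. The 61 bases common to all stage lists, printed above, hold no DRACH, while 78.3% of windows of that length from the middle of E95 peaks hold it. The whole peaks at E33 (240 bases), E50 (210), E60 (240) and in PK15 rRNA-depleted RNA (240) hold none either. Of E95 peaks within 20% of these lengths, 98.7% to 98.9% hold it. Of the 6 stage peaks of this site, 2 hold DRACH, those of 330 bases at E70 and E95.  More sites were listed late: exons 3 and 4 at E70 and E95 (folds 1.79 and 2.08), and the 3′ UTR at E60 and E95 (4.61 and 3.57) and at E70 and E95 (2.45 and 2.28). The count of MEF2D peaks was 1, 1, 1, 2, 3 and 4 from E33 to E95, and that of MEF2C 2, 2, 2, 2, 3 and 4. Their scaled TPM rose over the same stages, while their mean deposited TPM did not rise from E33 to E95. The deposited means were 43.5 and 38.0 for MEF2C and 18.2 and 16.5 for MEF2D. The part of the level in the number of peaks was not tested.

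MEF2A had a site in its last exon, with folds of 3.27 at E33, 3.71 at E60, 3.38 at E70 and 4.64 at E95. At E70 and E95 it covered the stop codon, and in PK15 polyA RNA the same site had a fold of 5.07. The MEF2A start codon was covered at E95 (fold 2.06) and in PK15 polyA RNA (3.69). The printed segments of MEF2A and MEF2C lie in these last-exon sites.

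SIX4 had folds of up to 14.3, beside a range of 1.79 to 5.10 for the MEF2 peaks in the stage lists. The authors' p for its stage peaks ran from 2.5e-11 to 0.00017, and was 5.1e-05 for the peak of 14.3. These are weaker than 1.6e-47 to 1e-140 at the MEF2C stop codon site, while the weakest MEF2 stage peak had 3.1e-05. The SIX4 stop codon site had folds of 10.3 at E33, 8.40 at E60, 9.03 at E70 and 4.23 at E95, from the 97.4 to the 46.5 percentile of the list. At E95 the peak was 61 bases long and did not reach the stop codon. The 31 bases common to these 4 peaks hold DRACH at both ends. In exon 2, peaks at E60 (fold 14.0) and E70 (14.3) lay next to each other without overlap, and the PK15 polyA list had 1 peak that overlapped both (7.28). In exon 1 a peak was listed at E33 (2.54) and in PK15 polyA RNA (6.19). SIX4 had 5 peaks in PK15 polyA RNA and none in PK15 rRNA-depleted RNA.

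EYA1 had 1 peak at E70 and 1 at E95, both in the 3′ UTR. They were 301 and 61 bases long, had folds of 16.1 and 12.9 (the 97.6 and 95.0 percentile), and did not overlap. EYA1 was at 2.59 ± 0.0889 and 1.89 ± 0.444 scaled TPM at those stages and at 4.18 ± 0.568 at E33, where no peak was listed. On deposited TPM its mean was 7.19 at E33, 2.60 at E70 and 1.36 at E95. The authors' p was 6.2e-08 at E70 and 0.00015 at E95, weaker than those of the constant MEF2C sites.

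**Figure D5:**
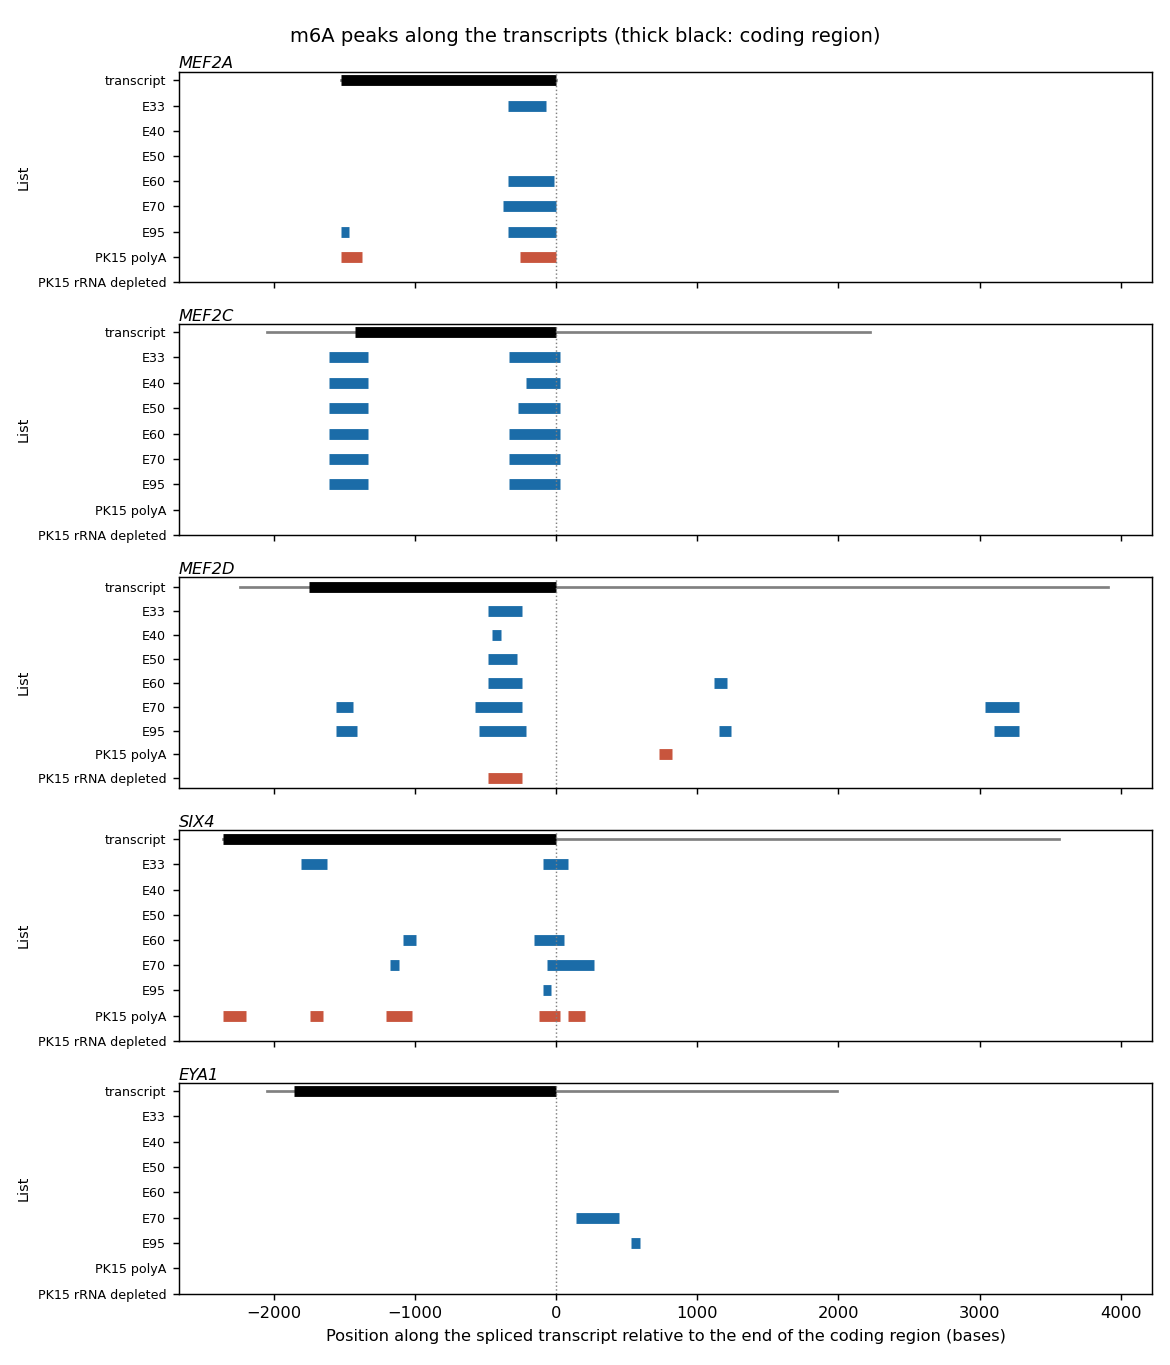
Peaks of the 5 genes in each list (y axis) along the spliced transcript, as distance in bases from the end of the coding region (x axis); thick black lines are coding regions, thin gray lines UTRs, blue bars muscle and red bars PK15. The 2 constant MEF2C sites lie at the start and the end of its coding region, and the EYA1 bars at E70 and E95 do not overlap; 3 stage peaks and 1 PK15 peak outside the transcripts used are not drawn.

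Over all members, 11 of the 41 stage peaks covered the stop codon, and 13 had their midpoint within 200 bases of the end of the coding region. Midpoints lay in the coding region for 25, in the 3′ UTR for 7 and in the 5′ UTR for 6. The MEF2A transcript in RefSeq has no UTR and the SIX4 transcript no 5′ UTR, which limits these counts. Of the 12 member peaks in the E95 list, DRACH was found in 11 and GGACT in 3, beside 95.4% and 29.9% of all 7996 peaks of that list on assembled chromosomes. Over the 41 stage peaks, which count a site once for each list, DRACH was in 35 and GGACT in 14. Of these 14, 12 are the start and stop codon sites of MEF2C. The motif was searched on the transcript strand only. A match describes the letters and does not place a methylated base.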

How the data were processed

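Expression was read from the TPM values the authors deposited for the 18 muscle input libraries, as named in the file headers. Peaks were read from 8 deposited lists with a fold enrichment (a ratio) and a p-value per peak, computed by the authors. Trimmomatic, HISAT2 and the build Sscrofa11.1 are named in the submitters' processing notes. The quantifier, the peak caller, its threshold and any pooling of replicates are not given in the sources used here. TPM keeps no depth, so library depth is unknown and counting intervals were not computed.

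TPM was divided by median-ratio size factors over 11974 genes. This scaling was made the main setting with earlier results of these data known, because a single gene holds 37.4% to 72.4% of the TPM of a library; deposited values are printed beside the calls. The fit was limma 3.58.1 (R 4.3.3) on log2(scaled TPM + 1), 6 stage means, 12 residual degrees of freedom, eBayes with a trend, over 13334 genes averaging 1 TPM or more, and two-sided tests. It was checked on simulated data, but no outcome of that check is given here. Ratios were compared by exact permutation. Peaks were placed on 1 RefSeq transcript per gene, and peaks of any of the 8 lists that overlapped by at least 1 base were joined into sites. Of 29 junctions between blocks of member peaks, 22 fell exactly at RefSeq introns.

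The members and lists were chosen with earlier results of these data known. Named genes were the members, the called genes with the 2 largest rises and falls per list, and the 2 genes most like each member by Pearson r. Replicate numbers were not used to pair the samples in the main fit. Same-numbered libraries of different stages had a median correlation of deviations of 0.0172 over 45 pairs, with 1 pair over 0.1. For different numbers it was -0.0034 over 90 pairs, also with 1 over 0.1. With 3 libraries a stage these values cannot show whether samples were paired. Alternatives were other scalings, a pseudocount of 0.1, no filter, the replicate block, fewer libraries, peaks above the median fold and a 50% overlap. One listed gene is not reported by name here. No protein sequence was used here.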

Additional observations from a re-analysis of the deposited data

How the results depend on the processing

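The scaling mattered most, and the cause was not tested. On deposited TPM the members called were 1 across the 6 stages, 1 between E33 and E95 and 0 between E33 and E40, and target genes called were 9. Changes that turned on deposited TPM from E33 to E95 were MEF2A (-0.76), MEF2C (-0.21), MEF2D (-0.14) and SIX4 (-1.11), and from E33 to E40 MEF2A (-0.20), MEF2C (-0.39) and MEF2D (-0.50), of which MEF2A was called on scaled values. With TPM rescaled after leaving out the 2 most abundant genes, which moved the all-gene median to -0.60, MEF2A (-0.21) and SIX4 (-0.56) turned. Members called were then 2 across the stages, 1 from E33 to E40 and 1 from E70 to E95. The shares of all genes called in that setting are not given here. With only the 6 libraries of E33 and E40 in the fit, 0 were called. Without E40 replicate 2 and E50 replicate 3, 1 was called between E60 and E70. Leaving out 1 library at a time gave 1 to 3 members called from E33 to E40, 0 to 1 from E70 to E95, 3 to 4 from E33 to E95 and across the stages, and 0 in the other consecutive pairs.

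With the replicate block, members called were 3 across the stages (MEF2A at adjusted p = 0.0648) and 4 from E33 to E95, and it changed no other call of a member. The 22 regulators tested had 14 calls with it. Restricted to peaks above the median fold of their list, members with a peak were 1 at E33 and E40, 0 at E50, 2 at E60 and E70, 3 at E95 and 0 in PK15 rRNA-depleted RNA. The share of all genes with such a peak is not given here, so these counts cannot be read as a trend of the members. All 34 shared peaks also passed an overlap of 50%. The MEF2C to MEF2A difference was 0.53 to 0.67 without 1 library at a time. With 3 libraries a stage, 1 peak list a stage and no depth, small changes and missing peaks cannot be read as absence.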
